A study of Arabidopsis thaliana with 38 samples.

Results

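The genes described here encode the proteins of the small (40S) subunit of the cytosolic ribosome in Arabidopsis thaliana. They were taken from a list of 60 loci in 27 families, from SA to S27, and followed through probe sets of the ATH1 array that are annotated to exactly 1 of these loci and to no other gene. This gave 36 genes of 20 families, each with 1 probe set, among 22746 probe sets tested. Of the other loci, 9 lie only in 6 probe sets shared by several genes and 15 have no annotated probe set, so their RNA is not described. The families SA, S5, S6, S16, S20, S23 and S26 have no gene among the 36.

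Rosettes of Col-0 plants aged 25 days were profiled on 38 arrays in 16 groups of line, condition and RNA pool. The line CSP1-FH (35S:AtCSP1-FH#11) expresses a tagged cold shock protein CSP1, atcsp1-1 is a mutant of that gene, and HF-RPL18 (35S:HF-RPL18) expresses a tagged ribosomal protein of the large subunit and served as the reference line. The 35S promoter is a viral promoter active in most plant cells, and each transgene is represented by 1 line, so atcsp1-1 is compared only with a line that carries a transgene. Cold plants spent 12 h at 4 °C, starting 2 h after lights on and under dimmer light, while non-stress plants were kept at 23 °C. The pools were RNA from CSP1 immunopurification (CSP1-IP), in which leaves were cross-linked with formaldehyde and RNA was recovered on antibody beads, polysomal RNA with at least 2 ribosomes per mRNA, and total RNA. HF-RPL18 has 3 arrays in each group, CSP1-FH and atcsp1-1 have 2, and the 38 arrays hold no CSP1-IP RNA of atcsp1-1. No group therefore shows which RNA the beads recover from the mutant. The design text of the series calls the replicates biological.

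The small subunit binds the mRNA, scans it for the start codon and reads each codon against the tRNA. Its proteins are classed below by where they sit: around the channel through which mRNA enters, on the platform near the mRNA exit, in the head with its beak, and in the body. In plants nearly every one of these proteins is encoded by several genes, called paralogs, whose products are very similar, and mRNAs of ribosomal proteins are known to be moved in and out of polysomes as growth conditions change. CSP1 is an RNA chaperone with a cold shock domain, and its bacterial relatives melt RNA structure in the cold.

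All values are RMA log2 values, so a difference of 1 is a 2-fold change, and a gene is said to be higher, lower, rising or falling only where limma gave an adjusted p below 0.05 over all 22746 probe sets. The error given after ± is the standard error (SE) of the fitted difference. The level of a probe set depends on its probes, so levels of different genes do not rank their mRNAs. The values of 34 of the genes on all 38 arrays are in the heat map of levels. AT2G39590, an S15A gene, had the dimmest probe set in total RNA, with 2.32 to 2.74 over 14 arrays and a median of 2.38. It and AT5G63070, an S15 gene, stayed below 4.42, the median of all values, as the mean of every group, and the other 34 genes exceeded it in at least 1 group.

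**Figure D1:**
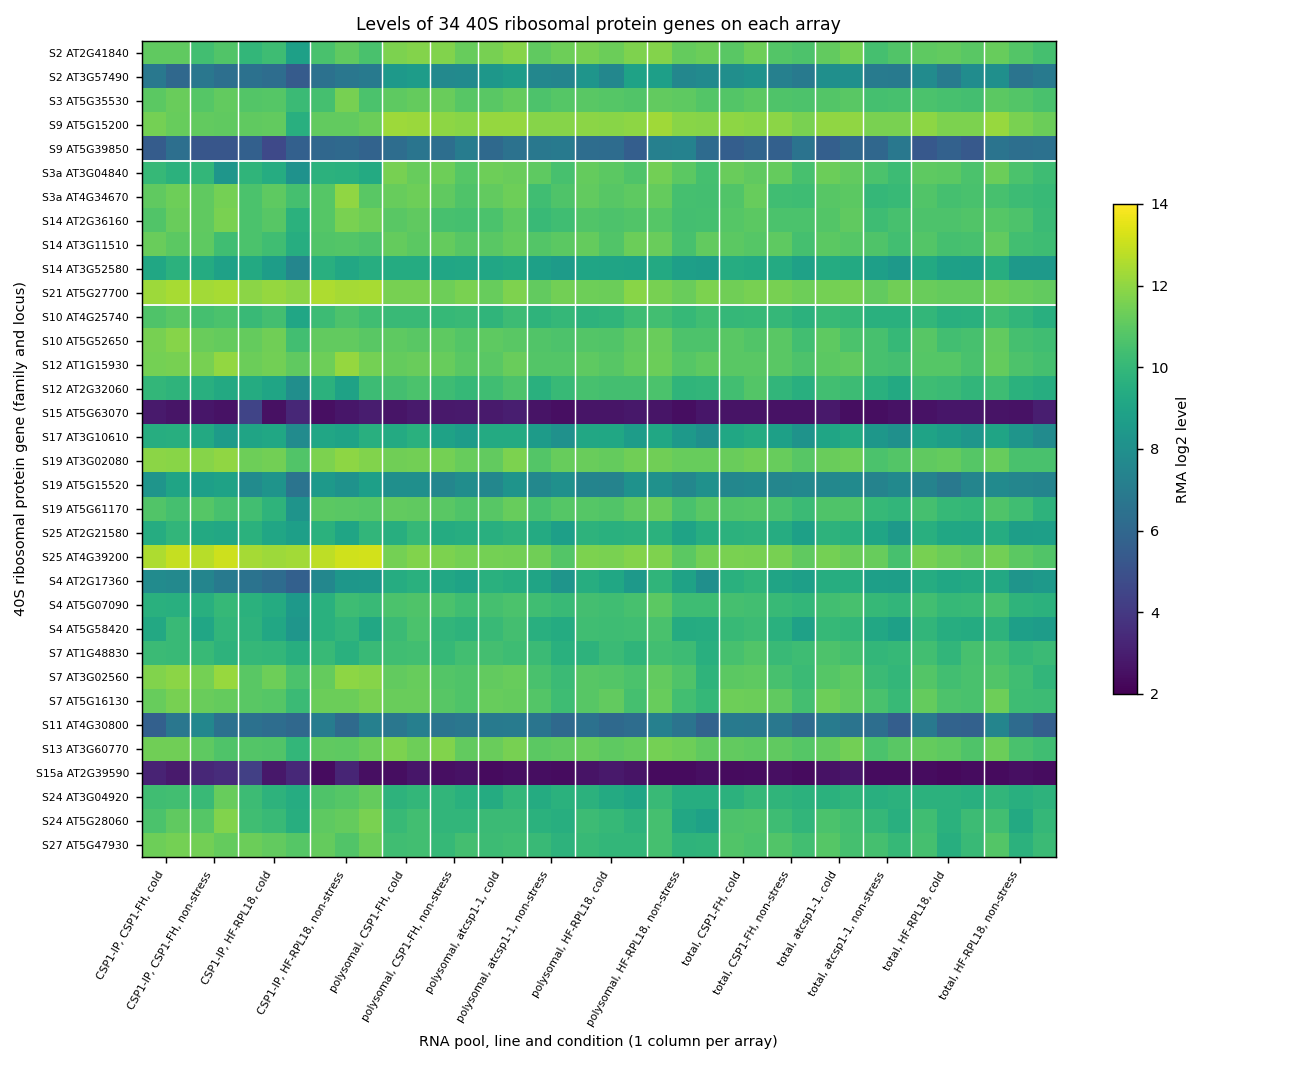
Heat map of the RMA log2 level (colour, from 2 to 14) of 34 genes (lines of the map, grouped by place in the subunit) on each of the 38 arrays (columns, CSP1-IP, then polysomal, then total). Neighbouring columns of a gene have like colours within a pool, and the strongest contrasts along a gene lie between CSP1-IP and the other pools, for example in AT2G17360, AT3G04840 and AT4G39200.

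The arrays of the pools differed in ways that touch every comparison with CSP1-IP. The signal of the 3′ probe set of the GAPDH control exceeded that of the 5′ probe set by 5.02 to 7.60 on the 10 CSP1-IP arrays, by 0.79 to 2.42 on the 14 polysomal arrays and by 1.05 to 1.99 on the 14 total arrays, and values spread less over the array in CSP1-IP, with an SD across all probe sets of 1.83 to 2.14, than in polysomal (2.22 to 2.31) and total RNA (2.27 to 2.32). Replicates also lay further apart in CSP1-IP. The SD over all probe sets of an array's deviations from its group mean was 0.30 to 0.50 in CSP1-IP. It was 0.17 to 0.28 in polysomal and 0.17 to 0.26 in total RNA. The fit takes 1 spread per probe set over all pools, so its errors and p-values for CSP1-IP can be too small. The labels give 3 to 6 ng of RNA for CSP1-IP labelling and 150 with no unit for polysomal and total RNA. The median level of the 36 genes was 9.27 on replicate 3 of HF-RPL18 cold CSP1-IP, against 10.04 to 10.77 on the other 9 CSP1-IP arrays. Markers of the leaf were high, with PSAN, ATPC1 and LHCB4.2 (mesophyll) between 10.5 and 13.4 on all arrays, whereas PYK10, a root gene, lay between 2.73 and 7.08. Only 7 of 22 marker loci had a probe set of their own. CSP1 and RPL18 had no named probe set, so the mutant and the transgenes were not checked by their own RNA. In bulk RNA, fewer cells of a type and less RNA per cell cannot be told apart.

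The first question is which mRNAs of the small subunit were over- or under-represented in RNA purified with CSP1, relative to the matching total RNA (same line, same condition). The 36 genes did not move as a block. In CSP1-FH cold, 5 were higher and 4 lower in CSP1-IP, against 13.6% of all probe sets higher and 14% lower. In CSP1-FH non-stress, 12 were higher and 2 lower, against 19% and 17.2%. In HF-RPL18 cold, 6 were higher and 8 lower, against 32% and 23.8%. In HF-RPL18 non-stress, 13 were higher and 1 lower, against 14.7% and 17%. The median difference of the 36 genes was 0.17, 0.36, −0.11 and 0.50 in the same order, and that of all probe sets was 0.16, 0.20, 0.20 and 0.13. Leaving out 1 array at a time, the medians of the 36 genes ranged over 0.036 to 0.33, 0.14 to 0.56, −0.29 to 0.099 and 0.32 to 0.79. The median of HF-RPL18 cold turned positive without replicate 3 of CSP1-IP or replicate 1 of total RNA.

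The counts depend on how the arrays were scaled. With cyclic loess between arrays, which took the median of all probe sets to between −0.01 and 0.01, the higher and lower counts were 13 and 1 in CSP1-FH cold, 21 and 0 in CSP1-FH non-stress, 14 and 2 in HF-RPL18 cold, and 22 and 0 in HF-RPL18 non-stress, with medians of 0.65, 1.07, 0.51 and 1.01. Of all probe sets, 9.58%, 12.8%, 15.5% and 13.8% were then higher and 9.29%, 11.1%, 15.6% and 12.1% lower. Calls lost after loess are given beside the genes named below, and calls gained are given as counts alone. Calls lost with the compared groups fitted alone are listed here. In CSP1-FH cold they were AT4G25740, AT5G15520 and AT5G52650. In CSP1-FH non-stress they were AT1G15930, AT3G02080, AT3G04840, AT3G04920, AT4G25740, AT4G34670, AT5G28060 and AT5G47930. In HF-RPL18 cold they included AT1G15930, AT2G39590, AT5G07090, AT5G15200 and AT5G63070. In HF-RPL18 non-stress they were AT2G36160, AT3G10610, AT4G34670, AT5G16130 and AT5G47930. For all probe sets the difference between CSP1-IP and total RNA fell with the level in total RNA, with Pearson r of −0.40 to −0.62 over 22746 probe sets of the same arrays, whereas over the 36 genes r was −0.22 to 0.16. The 880 probe sets between 9.08 and 10.79, the middle level range of the 36 genes, had medians of −0.86, −1.13, −1.12 and −0.75, and 8.75%, 11.5%, 10% and 15.5% of them were higher in CSP1-IP.

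**Figure D2:**
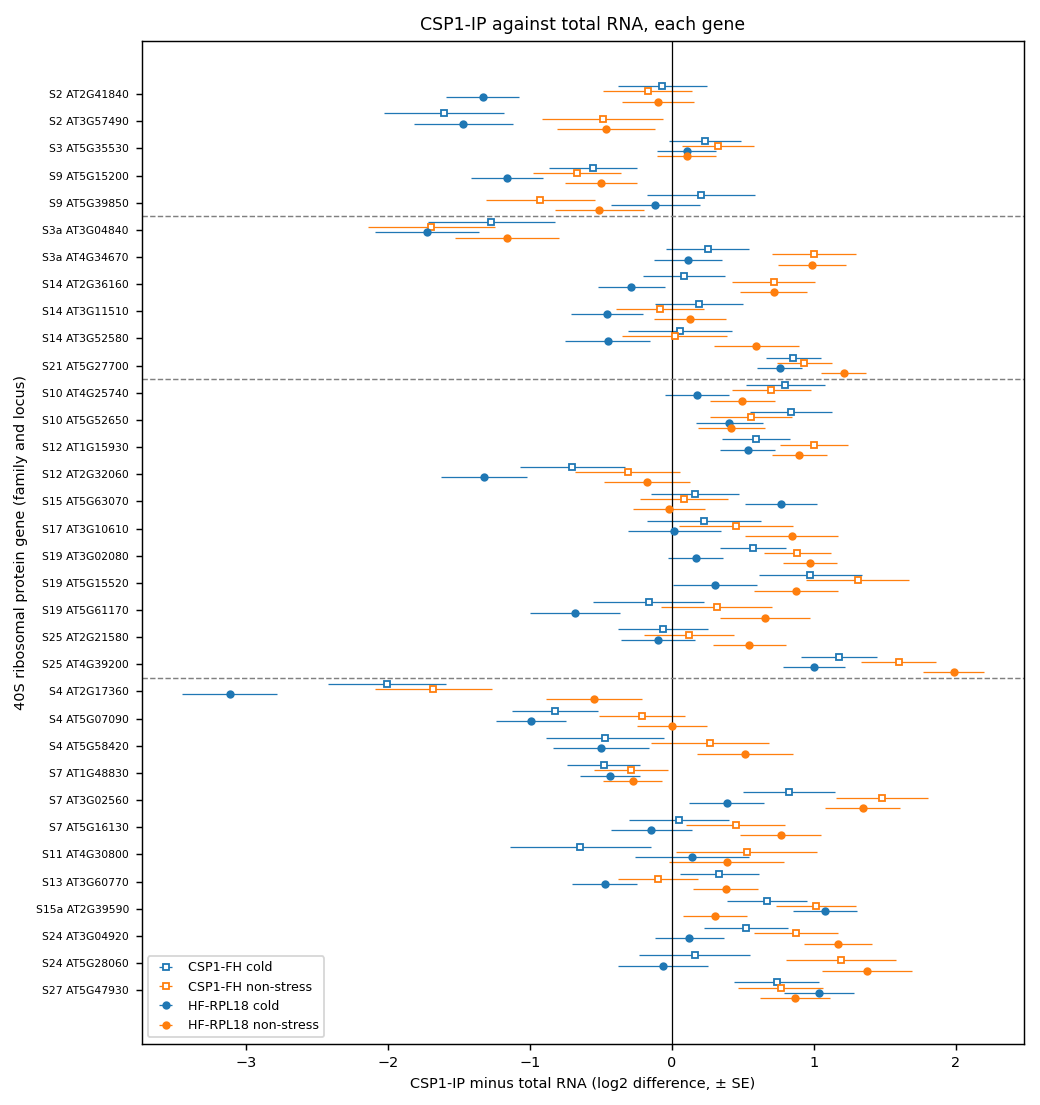
CSP1-IP minus total RNA (x axis, log2, points with bars of 1 SE) for 34 genes (y axis, dashed lines between the parts of the subunit) in CSP1-FH (open squares) and HF-RPL18 (filled circles), cold and non-stress. AT4G39200 and AT5G27700 lie right of 0 in all 4 comparisons and AT3G04840 and AT2G17360 lie left of it, with AT2G17360 reaching −3.12 in HF-RPL18 cold.

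Over the 4 comparisons, 17 genes were higher in CSP1-IP in at least 1, 8 were lower in at least 1, none was higher in 1 and lower in another, and 11 were called in none. AT4G39200 and AT5G27700 were higher in all 4, and AT3G04840 was lower in all 4. The difference was above 0 in all 4 comparisons for 14 genes and below 0 in all 4 for 7. The families S3A, S7 and S12 have a gene in each of these last sets.

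At the mRNA entry, every call was on the lower side. S2, S3 and S9 line the entry channel, where their counterparts in bacteria unwind mRNA. AT2G41840, an S2 gene, had 9.96, 10.26 and 8.84 in HF-RPL18 cold CSP1-IP and 11.03, 11.09 and 10.94 in total RNA. All 3 CSP1-IP arrays lay below all 3 total arrays, and the difference was −1.33 ± 0.26 (adjusted p = 0.000128). In the other 3 comparisons its difference was −0.07, −0.17 and −0.10. The second S2 gene, AT3G57490, had 6.81 and 6.04 in CSP1-FH cold CSP1-IP against 7.92 and 8.14 in total RNA, and 6.50, 6.29 and 5.42 in HF-RPL18 cold CSP1-IP against 7.77, 7.01 and 7.83 in total RNA. The pools did not overlap in either line, with differences of −1.61 ± 0.42 (adjusted p = 0.006) and −1.47 ± 0.35 (adjusted p = 0.000994). The call in CSP1-FH was lost without replicate 2 of CSP1-IP (−1.22, adjusted p = 0.0876) or of total RNA (−1.50, adjusted p = 0.0524), and after loess (−1.09, adjusted p = 0.0692). AT5G15200, an S9 gene, was lower in HF-RPL18 cold (−1.16, adjusted p = 0.000514), where its CSP1-IP arrays had 11.09, 11.12 and 9.59 and its total arrays 11.97, 11.66 and 11.66. None of these genes passed in HF-RPL18 cold after loess: AT2G41840 was at −0.54 (adjusted p = 0.119), AT3G57490 at −0.66 (adjusted p = 0.147) and AT5G15200 at −0.39 (adjusted p = 0.195). AT5G35530, the S3 gene, and AT5G39850, the other S9 gene, passed in no comparison of CSP1-IP with total RNA.

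On the platform the genes split. S3A, S14 and S21 sit near the exit of the mRNA channel. AT5G27700, the S21 gene, had 12.26 and 12.42 in CSP1-FH cold CSP1-IP, 12.36 and 12.44 in CSP1-FH non-stress CSP1-IP, 11.91, 12.10 and 11.89 in HF-RPL18 cold CSP1-IP, and 12.55, 12.40 and 12.42 in HF-RPL18 non-stress CSP1-IP. Its total RNA had 11.42 and 11.55, 11.55 and 11.37, 11.26, 11.18 and 11.18, and 11.39, 11.21 and 11.13 in the same groups. The lowest CSP1-IP array lay above the highest total array, and spreads within groups were small. The differences were 0.86 ± 0.19 (adjusted p = 0.00182), 0.93 ± 0.19 (adjusted p = 0.000512), 0.76 ± 0.16 (adjusted p = 0.000312) and 1.21 ± 0.16 (adjusted p = 1.32e-06), and no call was lost by leaving out an array or after loess.

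The S3A paralogs went apart. AT3G04840 had 10.06 and 9.72 in CSP1-FH cold CSP1-IP, 9.96 and 8.31 in CSP1-FH non-stress CSP1-IP, 9.87, 9.41 and 8.11 in HF-RPL18 cold CSP1-IP, and 9.73, 9.60 and 9.35 in HF-RPL18 non-stress CSP1-IP. In total RNA it had 11.24 and 11.09, 11.16 and 10.51, 11.02, 10.96 and 10.59, and 11.29, 10.61 and 10.26 in the same groups, all above every CSP1-IP array. It was lower in CSP1-IP by −1.27 ± 0.45 (adjusted p = 0.0345), −1.70 ± 0.45 (adjusted p = 0.00431), −1.73 ± 0.37 (adjusted p = 0.000354) and −1.16 ± 0.37 (adjusted p = 0.0157). The call of CSP1-FH cold was lost without any 1 of its 4 arrays (−1.44 to −1.11, adjusted p = 0.0677 to 0.156). That of CSP1-FH non-stress was lost without replicate 1 of total RNA (−1.37, adjusted p = 0.0709) or replicate 2 of CSP1-IP (−0.87, adjusted p = 0.2), and that of HF-RPL18 non-stress without replicate 1 of total RNA (−0.88, adjusted p = 0.107) or replicate 3 of CSP1-IP (−1.06, adjusted p = 0.0546). After loess it was still below 0 in all 4, at −0.67, −0.86, −0.92 and −0.61, but passed only in HF-RPL18 cold (adjusted p = 0.0255). AT4G34670, the other S3A gene, had 10.84, 12.00 and 10.94 in HF-RPL18 non-stress CSP1-IP against 10.52, 10.21 and 10.10 in total RNA, without overlap. It was higher in HF-RPL18 non-stress (0.98 ± 0.24, adjusted p = 0.00219) and in CSP1-FH non-stress (1.00 ± 0.29, adjusted p = 0.00935), and in the cold its difference was 0.25 in CSP1-FH and 0.11 in HF-RPL18. The call in CSP1-FH was lost without replicate 2 of CSP1-IP (0.79, adjusted p = 0.113) or of total RNA (0.97, adjusted p = 0.0548). Both calls of AT4G34670 were lost with the compared groups fitted alone. Of the 3 S14 genes, AT2G36160 was higher in HF-RPL18 non-stress (0.72, adjusted p = 0.0218), lost without replicate 2 of CSP1-IP (0.55, adjusted p = 0.116), replicate 3 of CSP1-IP (0.67, adjusted p = 0.0598) or replicate 3 of total RNA (0.54, adjusted p = 0.133).

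In the head most calls were on the higher side, and the exception was AT2G32060, an S12 gene. S25 is needed in yeast and human cells for initiation on some viral mRNAs. AT4G39200, an S25 gene, had 12.53 and 12.95 in CSP1-FH cold CSP1-IP, 12.71 and 13.11 in CSP1-FH non-stress CSP1-IP, 12.40, 12.22 and 12.34 in HF-RPL18 cold CSP1-IP, and 12.79, 13.15 and 13.16 in HF-RPL18 non-stress CSP1-IP. In total RNA it had 11.59 and 11.54, 11.56 and 11.06, 11.54, 11.31 and 11.11, and 11.43, 10.98 and 10.74 in the same groups. No CSP1-IP array reached down to a total array. The differences were 1.18 ± 0.27 (adjusted p = 0.00169), 1.60 ± 0.27 (adjusted p = 4.05e-05), 1.00 ± 0.22 (adjusted p = 0.000458) and 1.98 ± 0.22 (adjusted p = 7.96e-08), and no call was lost by leaving out an array. After loess they were 1.80, 2.46, 1.77 and 2.53. The other S25 gene, AT2G21580, passed in none of the 4 comparisons, with 9.65, 9.05 and 9.91 in HF-RPL18 non-stress CSP1-IP against 9.43, 8.75 and 8.79 in total RNA, which overlap.

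S12 lies in the beak of the head. AT1G15930 had 11.36, 12.12 and 11.47 in HF-RPL18 non-stress CSP1-IP against 11.15, 10.67 and 10.45 in total RNA, without overlap, and was higher by 0.90 (adjusted p = 0.000762). It was also higher in CSP1-FH non-stress (1.00, adjusted p = 0.00194), lost without replicate 2 of CSP1-IP (0.74, adjusted p = 0.057), and in HF-RPL18 cold (0.53, adjusted p = 0.0234), lost without replicate 2 of CSP1-IP (0.45, adjusted p = 0.0795) or replicate 3 of total RNA (0.44, adjusted p = 0.0998). AT2G32060 had 9.40, 9.05 and 7.91 in HF-RPL18 cold CSP1-IP against 10.28, 10.16 and 9.90 in total RNA, again without overlap, and was lower by −1.32 ± 0.30 (adjusted p = 0.000743). After loess this became −0.50 (adjusted p = 0.15), and in the other 3 comparisons the difference was −0.70, −0.31 and −0.18.

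The S19 genes encode a head protein whose human counterpart is mutated in an inherited anaemia. AT3G02080 was higher in HF-RPL18 non-stress, with 11.61, 11.95 and 11.72 in CSP1-IP against 11.23, 10.57 and 10.56 in total RNA (0.97 ± 0.19, adjusted p = 0.000268). In CSP1-FH non-stress it was higher by 0.88 (adjusted p = 0.00466), lost without replicate 2 of total RNA (0.72, adjusted p = 0.072). AT5G15520 was higher in CSP1-FH non-stress, with 8.79 and 8.93 in CSP1-IP against 7.52 and 7.58 in total RNA (1.31, adjusted p = 0.00631), and every CSP1-IP array lay above every total array. It also passed in CSP1-FH cold (0.97, adjusted p = 0.0458) and HF-RPL18 non-stress (0.87, adjusted p = 0.0247). Each of these was lost on leaving out any of several arrays: replicate 2 of CSP1-IP (0.60, adjusted p = 0.343), replicate 1 of total RNA (0.91, adjusted p = 0.184) or replicate 2 of total RNA (1.04, adjusted p = 0.116) in CSP1-FH cold, and replicate 1 of CSP1-IP (0.87, adjusted p = 0.0578), replicate 3 of CSP1-IP (0.71, adjusted p = 0.105), replicate 2 of total RNA (0.86, adjusted p = 0.0627) or replicate 3 of total RNA (0.80, adjusted p = 0.08) in HF-RPL18 non-stress. AT5G61170, the third measured S19 gene, passed in none. The S10 genes passed only in CSP1-FH: AT4G25740 was at 0.80 in the cold (adjusted p = 0.0331) and 0.70 in non-stress (adjusted p = 0.0495), and AT5G52650 at 0.84 in the cold (adjusted p = 0.0314). Each of these 3 calls was lost without any 1 of its 4 arrays, with values of 0.67 to 0.92, 0.57 to 0.83 and 0.71 to 0.96. AT3G10610, the S17 gene, was higher in HF-RPL18 non-stress by 0.84 (adjusted p = 0.0499), lost in 5 of 6 cases of leaving out an array (0.55 to 0.97). The dim S15 gene AT5G63070 passed in HF-RPL18 cold (0.77, adjusted p = 0.0123), with 4.44, 2.56 and 3.32 in CSP1-IP against 2.58, 2.72 and 2.70 in total RNA. Its call rested on replicate 1 of CSP1-IP, without which the difference was 0.27 (adjusted p = 0.217), and was also lost after loess (0.21, adjusted p = 0.543).

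In the body, S4 held the lowest value of the set. AT2G17360, an S4 gene, had 7.81 and 7.64 in CSP1-FH cold CSP1-IP, 7.47 and 6.91 in CSP1-FH non-stress CSP1-IP, 6.56, 6.23 and 5.69 in HF-RPL18 cold CSP1-IP, and 7.55, 8.36 and 8.40 in HF-RPL18 non-stress CSP1-IP. Its total RNA had 9.60 and 9.87, 8.99 and 8.75, 9.42, 9.13 and 9.28, and 9.22, 8.28 and 8.47 in the same groups. The pools were apart in the first 3 groups and overlapped in HF-RPL18 non-stress. The differences were −2.01 ± 0.41 (adjusted p = 0.00073), −1.68 ± 0.41 (adjusted p = 0.00244), −3.12 ± 0.34 (adjusted p = 5.11e-08) and −0.55 ± 0.34 (adjusted p = 0.22), and none of the 3 calls was lost by leaving out an array. After loess they were −1.44 (adjusted p = 0.00714), −0.91 (adjusted p = 0.0809), −2.28 (adjusted p = 2.1e-06) and −0.02. AT5G07090, a second S4 gene, was lower in HF-RPL18 cold, with 9.68, 9.39 and 8.43 in CSP1-IP against 10.36, 10.06 and 10.08 in total RNA (−0.99, adjusted p = 0.0016), and at −0.18 after loess (adjusted p = 0.61). In CSP1-FH cold it was lower by −0.82 (adjusted p = 0.0427), lost without any 1 of the 4 arrays (−0.86 to −0.78, adjusted p = 0.118 to 0.166) and after loess (−0.22, adjusted p = 0.668). AT5G58420, the third measured S4 gene, passed in none.

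Other body genes were higher in CSP1-IP, mostly without stress. AT5G47930, the S27 gene, had 11.29, 11.14 and 10.82 in HF-RPL18 cold CSP1-IP against 10.48, 9.54 and 10.13 in total RNA, without overlap (1.04 ± 0.25, adjusted p = 0.00107). It was also higher in HF-RPL18 non-stress (0.86, adjusted p = 0.00777), lost without replicate 2 of total RNA (0.60, adjusted p = 0.0845), and in CSP1-FH non-stress (0.77, adjusted p = 0.0476), lost without any 1 of its 4 arrays (0.58 to 0.95). The S24 genes, whose human counterpart is also among the anaemia genes, were both higher in HF-RPL18 non-stress. AT5G28060 had 11.01, 11.15 and 11.57 in CSP1-IP against 10.36, 9.27 and 9.99 in total RNA (1.38 ± 0.32, adjusted p = 0.00138). AT3G04920 had 10.67, 10.84 and 11.19 in CSP1-IP against 9.90, 9.55 and 9.74 in total RNA (1.17 ± 0.24, adjusted p = 0.000433). Neither overlapped, and in HF-RPL18 cold their differences were −0.06 and 0.12. In CSP1-FH non-stress AT5G28060 was higher by 1.19 (adjusted p = 0.0185), lost without replicate 2 of total RNA (1.00, adjusted p = 0.132) or of CSP1-IP (0.75, adjusted p = 0.252), and AT3G04920 by 0.87 (adjusted p = 0.0224), lost without replicate 2 of CSP1-IP (0.32, adjusted p = 0.496), replicate 1 of total RNA (0.94, adjusted p = 0.0657) or replicate 2 of total RNA (0.81, adjusted p = 0.114).

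Among the S7 genes, AT3G02560 was higher in HF-RPL18 non-stress, with 11.18, 11.96 and 11.83 in CSP1-IP against 10.74, 10.31 and 9.89 in total RNA (1.35 ± 0.26, adjusted p = 0.000259), and in CSP1-FH non-stress (1.48 ± 0.32, adjusted p = 0.000863). AT5G16130 was higher in HF-RPL18 non-stress (0.77, adjusted p = 0.0418), lost in 5 of 6 cases of leaving out an array (0.57 to 0.81). AT1G48830, their paralog, had a difference of −0.48 to −0.28 in the 4 comparisons and passed in none. The dim S15A gene AT2G39590 passed in HF-RPL18 cold (1.08, adjusted p = 0.000362), with 4.25, 2.78 and 3.36 in CSP1-IP against 2.42, 2.32 and 2.42 in total RNA, and was at 0.50 after loess (adjusted p = 0.0752). In CSP1-FH non-stress it was higher by 1.01 (adjusted p = 0.00609), lost without replicate 2 of CSP1-IP (0.93, adjusted p = 0.0515) or of total RNA (0.93, adjusted p = 0.055), and after loess (0.56, adjusted p = 0.12). AT3G60770 (S13) and AT4G30800 (S11) passed in none.

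The proteins of the large subunit gave a like picture with more calls. Of 69 genes of the 60S list with a probe set of their own, 18 were higher and 4 lower in CSP1-FH cold, 33 and 5 in CSP1-FH non-stress, 21 and 16 in HF-RPL18 cold, and 43 and 2 in HF-RPL18 non-stress, with medians of 0.42, 0.74, 0.19 and 0.86, against the shares of all probe sets given above. After loess the counts were 37 and 2, 49 and 0, 35 and 5, and 52 and 0, with medians of 0.91, 1.39, 0.72 and 1.35. These values stand beside those of the small subunit without a test between them.

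The next test asks whether the line or the condition altered the difference between CSP1-IP and total RNA. Within HF-RPL18, 2 genes had a lower CSP1-IP minus total difference in the cold than without stress, against 2.52% of all probe sets lower and 1.97% higher, and the median over the 36 was −0.79 (−0.99 to −0.50 without 1 array). AT2G17360 (S4) gave −2.57 ± 0.48 (adjusted p = 0.00351), which no left-out array undid. AT2G41840 (S2) gave −1.24 ± 0.36 (adjusted p = 0.048), lost in 9 of 12 cases of leaving out an array, among them replicate 3 of cold CSP1-IP (−0.81, adjusted p = 0.11), and after loess (−0.99, adjusted p = 0.165). Both calls, that of AT2G17360 included, were lost with the compared groups fitted alone, where 0.0572% of all probe sets passed. In CSP1-FH no gene passed, against 0.101% of all probe sets, and the median was −0.32 (−0.44 to −0.16 without 1 array). The largest values there were AT4G30800 at −1.17 (adjusted p = 0.639), AT5G39850 at 1.13 (adjusted p = 0.521) and AT3G57490 at −1.12 (adjusted p = 0.589). Between CSP1-FH and HF-RPL18 no gene passed in the cold or without stress, against 0.0572% and 0.0264% of all probe sets, with medians of 0.35 (0.021 to 0.45 without 1 array) and −0.15 (−0.38 to 0.0042). AT2G17360 was at 1.11 ± 0.53 in the cold (adjusted p = 0.452) and at −1.13 ± 0.53 without stress (adjusted p = 0.61).

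Set against polysomal RNA, which holds mRNAs under translation, CSP1-IP gave a picture that shares the CSP1-IP arrays with the one above. In CSP1-FH cold 3 genes were higher and 5 lower, against 13.1% and 13.4% of all probe sets. In CSP1-FH non-stress 10 were higher and 6 lower, against 16.8% and 16.1%. In HF-RPL18 cold 5 were higher and 11 lower, against 26.8% and 20.8%. In HF-RPL18 non-stress 10 were higher and 5 lower, against 14.7% and 15.9%. The medians were 0.01, 0.12, −0.27 and 0.18, and those of all probe sets 0.15, 0.16, 0.18 and 0.11. Without 1 array the medians of the 36 genes ranged over −0.10 to 0.095, 0.026 to 0.25, −0.41 to 0.033 and 0.073 to 0.31, and that of HF-RPL18 cold was positive without replicate 3 of CSP1-IP. After loess the higher and lower counts were 11 and 2, 17 and 3, 13 and 5, and 17 and 0, with medians of 0.58, 0.79, 0.43 and 0.62, against 10.6% and 9.71%, 14.1% and 11.8%, 15.9% and 16%, and 14.3% and 12.3% of all probe sets.

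The S2 genes were again lower in CSP1-IP. AT3G57490 had 6.81 and 6.04 in CSP1-FH cold CSP1-IP against 8.42 and 8.63 in polysomal RNA (−2.11 ± 0.42, adjusted p = 0.000516). In HF-RPL18 cold it had 6.50, 6.29 and 5.42 in CSP1-IP against 8.25, 7.54 and 8.90 in polysomal RNA (−2.16 ± 0.35, adjusted p = 1.44e-05). The pools did not overlap in either line, and both calls remained when any array was left out and after loess (−1.62, adjusted p = 0.00589, and −1.45, adjusted p = 0.00175). Without stress it was also lower, by −1.14 in CSP1-FH (adjusted p = 0.0403), lost without any 1 of the 4 arrays (−1.31 to −0.97), and by −1.29 in HF-RPL18 (adjusted p = 0.00495), lost without replicate 1 of polysomal RNA (−0.92, adjusted p = 0.0624). After loess neither passed, at −0.46 (adjusted p = 0.474) in CSP1-FH and −0.85 (adjusted p = 0.068) in HF-RPL18. AT2G41840 had 9.96, 10.26 and 8.84 in HF-RPL18 cold CSP1-IP against 11.53, 11.32 and 11.66 in polysomal RNA (−1.82 ± 0.26, adjusted p = 2.32e-06), and −0.93 after loess (adjusted p = 0.00741).

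AT4G39200 (S25) and AT5G27700 (S21) were higher than in polysomal RNA in all 4 comparisons, by 1.12, 1.35, 0.67 and 1.66 for AT4G39200 and by 0.79, 0.93, 0.47 and 0.98 for AT5G27700, in the order CSP1-FH cold, CSP1-FH non-stress, HF-RPL18 cold and HF-RPL18 non-stress. The call of AT5G27700 in HF-RPL18 cold (adjusted p = 0.0171) was lost without replicate 1 of polysomal RNA (0.40, adjusted p = 0.0748), replicate 2 of polysomal RNA (0.36, adjusted p = 0.1) or replicate 2 of CSP1-IP (0.40, adjusted p = 0.055). With the compared groups fitted alone, AT5G27700 kept its call only in HF-RPL18 non-stress. AT4G39200 lost its call in HF-RPL18 cold in that fit and kept the others. AT5G47930 (S27) was higher in all 4 as well, by 1.07, 1.09, 1.09 and 1.06. Its calls in CSP1-FH were lost without replicate 1 of polysomal RNA (1.05, adjusted p = 0.0566), replicate 2 of polysomal RNA (1.08, adjusted p = 0.0506) or replicate 2 of CSP1-IP (1.00, adjusted p = 0.0553) in the cold, and without replicate 1 of polysomal RNA (0.91, adjusted p = 0.0819) or of CSP1-IP (0.93, adjusted p = 0.0542) without stress. AT5G39850, the S9 gene that passed in no comparison with total RNA, was lower than in polysomal RNA in CSP1-FH non-stress, with 5.20 and 5.21 in CSP1-IP against 6.34 and 7.05 in polysomal RNA (−1.49 ± 0.38, adjusted p = 0.0036). This call was lost without replicate 2 of polysomal RNA (−1.13, adjusted p = 0.077).

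Paralogs of a family can be compared with each other directly, since each pair was read on the same arrays. For each of 20 pairs in 12 families, the gap between the log2 levels of both genes was taken on every array, and the 10 CSP1-IP arrays were compared with the 10 total arrays of CSP1-FH and HF-RPL18 by an exact permutation test within line and condition (2-sided, 14400 arrangements, Benjamini-Hochberg over the 20 pairs). The gap differed between the pools in 13 pairs at an adjusted p below 0.05, and in 6 of these the gaps did not overlap between pools. In the exact permutation test each of the 6 gave p = 0.000139 and an adjusted p of 0.000463, and 0.000139 is the smallest p these arrangements can give. Pairs from families with 3 measured genes share a gene and are not independent of each other.

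The pair S3A came first: the gap of AT3G04840 over AT4G34670 was −3.19 to −0.74 on CSP1-IP arrays and −0.10 to 0.84 on total arrays, a shift of −2.04. In S4, AT2G17360 over AT5G58420 had gaps of −3.19 to −0.81 on CSP1-IP arrays and −0.61 to −0.09 on total arrays, a shift of −1.80. Also in S4, AT2G17360 over AT5G07090 had gaps of −3.16 to −1.72 on CSP1-IP arrays and −1.52 to −0.51 on total arrays, a shift of −1.33. In S12, AT1G15930 over AT2G32060 had gaps of 1.23 to 3.20 on CSP1-IP arrays and 0.18 to 1.08 on total arrays, a shift of 1.40. In S7, AT1G48830 over AT3G02560 had gaps of −2.40 to −0.91 on CSP1-IP arrays and −0.47 to 0.29 on total arrays, a shift of −1.35. In S25, AT2G21580 over AT4G39200 had gaps of −4.11 to −2.73 on CSP1-IP arrays and −2.23 to −1.77 on total arrays, a shift of −1.31. The sign of each of these shifts means that the gene named second was the better represented of its pair in CSP1-IP, except in S12, where it was the first.

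**Figure D3:**
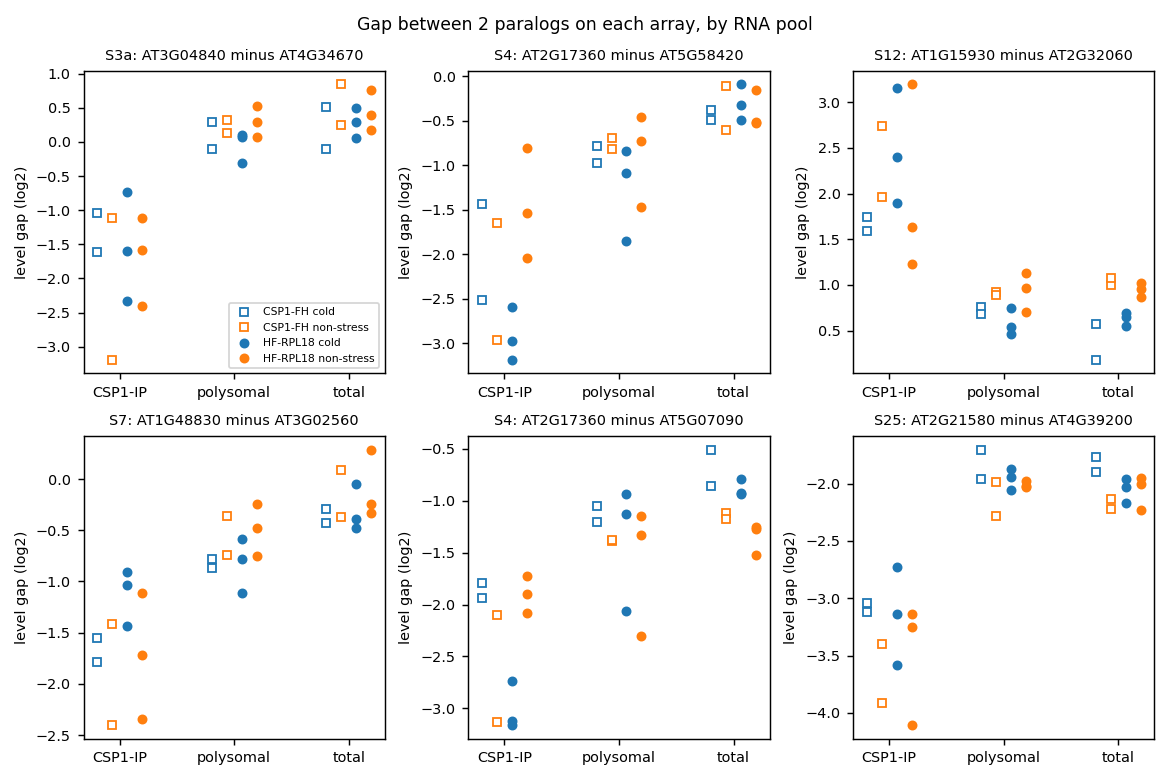
Gap between the log2 levels of both genes of a pair (y axis) on each array of CSP1-IP, polysomal and total RNA (x axis) for the 6 pairs with the largest shift. The points of CSP1-IP lie apart from those of total RNA in every panel, for example −3.19 to −0.74 against −0.10 to 0.84 in S3A.

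The smallest shifts were in S24, S10 and S14. By the same exact permutation test, the S24 gap of AT3G04920 over AT5G28060 shifted by 0.003 (p = 0.983), in S10 that of AT4G25740 over AT5G52650 by −0.02 (p = 0.745), and in S14 that of AT3G11510 over AT3G52580 by −0.14 (p = 0.273). These p-values do not show that the pairs behave alike: in S24 the gaps ranged from −0.70 to −0.09 on CSP1-IP arrays and from −0.95 to 0.28 on total arrays. Cyclic loess gave 12 pairs past the threshold and polysomal in place of total RNA 14. Of the 13 pairs called above, 12 kept the direction of their shift after loess and 13 against polysomal RNA. Probe sets of paralogs lie at different positions of their transcripts, and the CSP1-IP arrays had the larger 3′ excess of the GAPDH control given above. The part of probe position and of cross-hybridisation between similar paralogs in these shifts was not tested.

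In CSP1-IP RNA, none of the 36 genes was lower in the cold in CSP1-FH and 16 were lower in HF-RPL18. In CSP1-FH cold against non-stress 1 gene was higher and none lower, against 4.15% and 4.5% of all probe sets, with a median of 0.12 over the 36 genes and −0.03 over all probe sets. In HF-RPL18 2 were higher and 16 lower, against 13.7% and 14.8%, with a median of −0.58 over the 36 genes and 0.05 over all probe sets. Without 1 array these medians of the 36 genes ranged over 0.041 to 0.16 in CSP1-FH and −0.77 to −0.38 in HF-RPL18. Of the 69 genes of the 60S list 39 were lower and 1 higher in HF-RPL18. The HF-RPL18 counts lean on 1 array and on the scaling: without replicate 3 of HF-RPL18 cold CSP1-IP, 8 of the 18 calls were kept, and after loess 4 genes were lower and none higher, with a median of −0.25 and 8.92% and 10.4% of all probe sets higher and lower. Of the 60S list, loess left 10 lower and none higher.

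The 4 genes that were lower in both scalings were AT2G17360 (S4), AT5G61170 (S19) and the S24 pair. AT2G17360 had 6.56, 6.23 and 5.69 in HF-RPL18 cold CSP1-IP against 7.55, 8.36 and 8.40 in non-stress CSP1-IP (−1.94 ± 0.34, adjusted p = 0.000138), and −1.57 after loess (adjusted p = 0.000713). AT5G61170 had 10.38, 9.82 and 8.21 in the cold against 10.97, 10.92 and 10.83 in non-stress (−1.44, adjusted p = 0.00157). Replicate 3 of the cold was the lowest for both, and the groups did not overlap. AT5G28060 had 10.32, 10.15 and 9.52 in the cold against 11.01, 11.15 and 11.57 in non-stress (−1.25, adjusted p = 0.00466). AT3G04920 had 10.22, 9.75 and 9.43 in the cold against 10.67, 10.84 and 11.19 in non-stress (−1.10, adjusted p = 0.00141). AT2G41840 (S2), with 9.96, 10.26 and 8.84 in the cold against 10.56, 11.05 and 10.54 in non-stress (−1.03, adjusted p = 0.00395), did not pass after loess (−0.69, adjusted p = 0.063). None of these 5 calls was lost by leaving out an array. With the compared groups fitted alone, 1 of the 18 calls was kept, that of AT2G17360, and 2.79% of all probe sets passed. AT5G61170, the S24 pair and AT2G41840 lost theirs. The 2 genes on the higher side were the dim genes AT2G39590 (0.75, adjusted p = 0.0151) and AT5G63070 (0.71, adjusted p = 0.0353), and without replicate 1 of HF-RPL18 cold CSP1-IP they were at 0.36 (adjusted p = 0.163) and 0.21 (adjusted p = 0.408). After loess they were at 0.43 (adjusted p = 0.153) and 0.41 (adjusted p = 0.239).

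The difference between the lines in this cold change was tested after the values were seen. It was positive for AT2G17360 (2.48 ± 0.53, adjusted p = 0.00614), AT2G41840 (1.56 ± 0.40, adjusted p = 0.019) and the S13 gene AT3G60770 (1.17 ± 0.36, adjusted p = 0.0428), and negative for AT2G39590 (−1.16 ± 0.36, adjusted p = 0.0436), against 3.65% of all probe sets on the higher and 4.92% on the lower side. The median over the 36 genes was 0.69 (0.39 to 0.89 without 1 array), and 0.14 after loess, where AT2G17360 was the remaining call. With the compared groups fitted alone none of the 4 calls was kept, and 0% of all probe sets passed. AT2G41840 had 11.07 and 11.08 in CSP1-FH cold CSP1-IP against 10.37 and 10.73 in non-stress CSP1-IP, the opposite order to HF-RPL18. AT3G60770 and AT2G39590 were lost in 6 of 10 cases of leaving out an array each, among them replicate 3 of HF-RPL18 cold CSP1-IP for AT3G60770 (0.89, adjusted p = 0.0947) and replicate 1 of it for AT2G39590 (−0.77, adjusted p = 0.0764).

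In total RNA few genes of the small subunit passed the test for cold in the fit over all 38 arrays. In CSP1-FH total RNA 1 gene was higher and none was lower, against 3.17% and 2.52% of all probe sets. In atcsp1-1 total RNA 1 was likewise higher and none lower, against 3.61% and 3.54%. This count rested on the fit: it was 12, all higher, when the atcsp1-1 cold and non-stress total arrays were fitted alone, where 14% of all probe sets passed, and 4 with a replicate block, where 9.66% did. In HF-RPL18 total RNA 1 gene was higher and 1 lower, against 5.32% and 5.44%. The lower one was AT5G39850 (S9), with 5.29, 5.71 and 5.37 in the cold against 6.62, 6.40 and 6.47 in non-stress (−1.04 ± 0.31, adjusted p = 0.0283), and this call was lost in 5 of 6 cases of leaving out an array (−1.09 to −0.96, adjusted p = 0.0598 to 0.112). In polysomal RNA 1 gene was higher in CSP1-FH, against 2.66% and 1.93% of all probe sets higher and lower, 1 in atcsp1-1, against 2.92% and 3.36%, and none in HF-RPL18, against 4.21% and 4.85%. In HF-RPL18, 2 genes had an unadjusted p below 0.05 in limma, without the share of all probe sets at that threshold. With replicate number as a block, which fits the pairing of these arrays, 2 genes passed in HF-RPL18 polysomal RNA, against 11.6% of all probe sets in that fit.

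Most cold differences of the set were above 0 without passing the test. The median cold difference in total RNA was 0.30 in CSP1-FH, 0.57 in atcsp1-1 and 0.13 in HF-RPL18, against −0.03, −0.02 and −0.02 over all probe sets. In polysomal RNA it was 0.25, 0.37 and 0.05 in the same order, against −0.06, −0.04 and 0.01. Without 1 array these medians ranged over 0.12 to 0.48, 0.55 to 0.63 and −0.025 to 0.36 in total RNA, and 0.17 to 0.30, 0.32 to 0.50 and −0.031 to 0.21 in polysomal RNA, so those of HF-RPL18 changed sign. The difference was above 0 in all 6 comparisons for 16 genes and below 0 in all 6 for 1, AT5G39850. These counts over 6 comparisons were not made for all probe sets. In atcsp1-1 total RNA 35 of 36 genes lay above 0, and after loess 35 of 36 genes and 11316 of 22746 probe sets did. In the main fit 13 genes had an unadjusted p below 0.05 in limma. The share of all probe sets at that threshold is not given, so the 13 are not read as a result about the set. Genes named after their values were seen were AT3G57490 (1.02, adjusted p = 0.18), AT3G10610 (1.00, adjusted p = 0.153) and AT5G58420 (1.00, adjusted p = 0.18). The cold difference of atcsp1-1 minus that of HF-RPL18 was above 0 for all 36 genes in total RNA, with a median of 0.51 (0.29 to 0.61 without 1 array), and for 35 of 36 in polysomal RNA, with a median of 0.38 (0.21 to 0.51). No gene passed in either in limma, and of all probe sets 0% did. For CSP1-FH minus HF-RPL18 in total RNA the median was 0.24 (0.030 to 0.38 without 1 array), with 33 of 36 above 0 and no gene past the threshold, against 0% of all probe sets, and this comparison shares the HF-RPL18 arrays with the one before. The largest values were AT4G30800 (S11) at 1.12 in atcsp1-1 minus HF-RPL18 and 0.67 in CSP1-FH minus HF-RPL18, with adjusted p of 1 in both.

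The comparison of polysomal with total RNA asks whether mRNAs of the small subunit were loaded with ribosomes to a different degree. No gene passed in any of the 6 comparisons in limma, against 0.044% of all probe sets in CSP1-FH cold, 0.435% in CSP1-FH non-stress, 0.0308% in atcsp1-1 cold, 0% in atcsp1-1 non-stress, 2.84% in HF-RPL18 cold and 1.12% in HF-RPL18 non-stress. This fit did not use the pairing of the arrays. With a replicate block no gene passed either, against 0.0791%, 0.809%, 0.0484%, 0%, 5.02% and 2.2% of all probe sets in the same order. The counts at an unadjusted p below 0.05 in the main fit were 0, 1, 0, 0, 2 and 6, without the share of all probe sets at that threshold. The differences leaned to the polysomal side, with medians of 0.13, 0.26, 0.09, 0.25, 0.25 and 0.26 against 0.02, 0.06, 0.01, 0.03, 0.06 and 0.02 over all probe sets, and 28, 31, 25, 30, 29 and 29 of 36 genes were above 0. Without 1 array the medians ranged over 0.070 to 0.21, 0.026 to 0.41, 0.041 to 0.17, 0.15 to 0.27, 0.19 to 0.33 and 0.12 to 0.50. AT3G57490 (S2) was among the 3 largest in every one, at 0.50, 0.65, 0.51, 0.53, 0.69 and 0.83. AT2G41840, the other S2 gene, was at 0.57, 0.75, 0.38, 0.60, 0.48 and 0.60. AT5G58420 (S4) was at 0.59 in CSP1-FH non-stress, 0.71 in HF-RPL18 cold and 0.75 in HF-RPL18 non-stress, and AT5G61170 (S19) at 0.70 in atcsp1-1 non-stress, 0.74 in HF-RPL18 cold and 0.66 in HF-RPL18 non-stress. Cold did not shift this difference detectably in HF-RPL18, where no gene and no probe set passed.

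Between lines no gene of the small subunit passed in total or polysomal RNA, in either condition, against 0.00879% of all probe sets without stress and 0.0044% in the cold in each comparison. The median of atcsp1-1 minus HF-RPL18 was 0.31 in cold total RNA, −0.20 in non-stress total RNA, 0.21 in cold polysomal RNA and −0.20 in non-stress polysomal RNA. That of CSP1-FH minus HF-RPL18 was 0.32, 0.07, 0.28 and 0.07 in the same order. Without 1 array all 4 non-stress medians changed sign, with ranges of −0.32 to 0.0074 and −0.080 to 0.28 in total RNA and of −0.30 to 0.00037 and −0.046 to 0.24 in polysomal RNA for atcsp1-1 and CSP1-FH, and the 4 cold medians stayed above 0, between 0.10 and 0.43. In cold total RNA the largest values were AT4G30800 (S11) at 0.65 ± 0.45 in atcsp1-1 and 0.74 ± 0.45 in CSP1-FH, AT3G10610 (S17) at 0.55 and 0.63, and AT5G47930 (S27) at 0.59 and 0.63, all with an adjusted p of 1. Both lines were set against the same HF-RPL18 arrays, so the like values of both are not independent.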

How the data were processed

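RNA was hybridised to Affymetrix ATH1 arrays, 1 array per sample. The authors deposited 1 log2 value per probe set and array, made with RMA (background correction, quantile normalisation and summary) according to the submitters' processing notes, per the labels. No RMA version and no list of the arrays normalised in one run was found in these sources, and the values were used as they are. Of 22810 probe sets, 64 controls were left out. Groups were taken from the sample titles. Arrays have no sequencing depth, so their number limits the precision.

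Tests used R 4.3.3 and limma 3.58.1 (lmFit and eBayes), with 1 mean per group over all 38 arrays, with 22 residual degrees of freedom to which the prior added 5.22. The 2-sided p-values of limma were adjusted over 22746 probe sets (Benjamini-Hochberg). All pools share 1 spread per probe set, although CSP1-IP replicates lay further apart. With the compared groups alone, the share of all probe sets called fell from 55.7% to 25.7% for CSP1-IP minus total in HF-RPL18 cold. For cold minus non-stress in HF-RPL18 CSP1-IP it fell from 28.5% to 2.79%. A gene was called at an adjusted p below 0.05. Paralog gaps were tested by an exact permutation test. Both procedures were tested on simulated data, drawn with the same spread in every pool. Those runs cannot show how the tests hold for CSP1-IP, whose replicates lay further apart. Figures were drawn with matplotlib 3.10.9.

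The members, their families and the comparison lists were chosen with earlier results of these data known. Names were chosen by a rule: in CSP1-IP against total RNA the 10 largest called rises and 5 largest called falls of each comparison, elsewhere up to 6 called genes in each direction or else the 3 largest differences, the 6 largest and 3 smallest paralog shifts, and the highest and lowest mean in total RNA. Other values, such as those of AT2G36160, AT3G10610, AT5G16130 and AT5G15200 in CSP1-IP against total RNA, were added after they were seen. The genes of 1 family count in all totals and medians but are not reported here by name. Families and places in the subunit come from the standard nomenclature.

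Same-numbered total and polysomal arrays of a line and condition deviated together (correlations of deviations of 0.47 to 0.73, all 10 distinct ones above 0.1, since a group of 2 arrays gives 1 value), and the numbers were taken to pair the samples in HF-RPL18 cold against non-stress in total and polysomal RNA and in HF-RPL18 polysomal against total RNA. They were not taken to pair CSP1-IP arrays. The main fit did not use the pairing, which entered only in the alternative with a replicate block. Pairing was accepted only with 3 pairs. Groups of 2 arrays were therefore not counted as paired, although polysomal and total RNA of CSP1-FH and atcsp1-1 had correlations of 0.47 to 0.59. Alternatives were cyclic loess between arrays, leaving out dim probe sets (14050 kept), the compared groups alone, the replicate number as a block, polysomal in place of total RNA for paralogs, and leaving out each array in turn.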

Additional observations from a re-analysis of the deposited data

Results flagged for a closer look

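The difference between CSP1-IP and total RNA depended on the condition in HF-RPL18 for AT2G17360 (S4; cold minus non-stress −2.57, limma adjusted p = 0.00351) and AT2G41840 (S2; −1.24, adjusted p = 0.048), by the test of the difference itself. The cold change of CSP1-IP RNA differed between CSP1-FH and HF-RPL18 for AT2G17360 (CSP1-FH minus HF-RPL18 2.48), AT2G41840 (1.56), AT3G60770 (1.17) and AT2G39590 (−1.16), in a test chosen after the values were seen. In the arrays behind these values, the 36 genes had a median level of 10.18, 10.04 and 9.27 in HF-RPL18 cold CSP1-IP, and without the lowest array AT2G17360 kept both calls, whereas AT2G41840 lost the first (−0.81, adjusted p = 0.11) and AT3G60770 lost its call (0.89, adjusted p = 0.0947). With the compared groups fitted alone none of the calls in this section was kept, those of AT2G17360 included. No group has 4 or more arrays, so single arrays were not tested against the rest of their group.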

How the results depend on the processing

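Counts of called genes were most sensitive to scaling and to fitting the compared groups alone. With cyclic loess the counts of CSP1-IP against total RNA were 14 in CSP1-FH cold and 22 in HF-RPL18 non-stress (medians 0.65, 1.07, 0.51 and 1.01 for CSP1-FH cold, CSP1-FH non-stress, HF-RPL18 cold and HF-RPL18 non-stress), and of CSP1-IP against polysomal RNA 13 in CSP1-FH cold (medians 0.58, 0.79, 0.43 and 0.62). The shares of all probe sets beside these counts were 18.9%, 25.9% and 20.3%. Loess also gave 4 for cold in HF-RPL18 CSP1-IP, 2 in atcsp1-1 total RNA, 1 in HF-RPL18 polysomal RNA, and 1 each for cold minus non-stress of CSP1-IP minus total in HF-RPL18 and for the line by cold difference in CSP1-IP (median 0.14). Of all probe sets, 19.3%, 7.45%, 9.24%, 1.76% and 3.04% passed in the same order. With the compared groups alone, CSP1-IP against total RNA gave 6 in CSP1-FH non-stress, 8 in HF-RPL18 cold and 9 in HF-RPL18 non-stress, against 17.6%, 25.7% and 25.9% of all probe sets. CSP1-IP against polysomal RNA gave 8 in each of these, against 18.2%, 19.3% and 24.3%. In this fit cold gave 0 in CSP1-FH CSP1-IP (0.875% of all probe sets) and 1 in HF-RPL18 CSP1-IP (2.79%). It gave 3 in CSP1-FH total (9.72%), 12 in atcsp1-1 total (14%) and 2 in atcsp1-1 polysomal RNA (5.75%). Both differences of differences gave 0, against 0.0572% for that within HF-RPL18 and 0% for the line by cold difference. With a replicate block the counts were 4 for cold in atcsp1-1 total RNA (9.66% of all probe sets), 2 in HF-RPL18 polysomal RNA (11.6%), 6 for the HF-RPL18 difference of differences (7.12%) and 8 for the line by cold difference (11.3%), and no other count moved by over 1.5 times. Without dim probe sets the last 2 gave 1 and 2, and the share of all probe sets in that fit is not given.

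Leaving out 1 array at a time gave counts of 3 to 5 (CSP1-FH cold), 6 to 13 (CSP1-FH non-stress) and 9 to 19 (HF-RPL18 non-stress) for CSP1-IP against total RNA, and 4 to 7 and 6 to 12 for CSP1-FH cold and non-stress against polysomal RNA. For cold it gave 0 to 1 in CSP1-FH and 8 to 22 in HF-RPL18 CSP1-IP, 0 to 1 and 1 to 2 in CSP1-FH and HF-RPL18 total RNA, and 0 to 0, 0 to 1 and 0 to 2 in CSP1-FH, atcsp1-1 and HF-RPL18 polysomal RNA. The HF-RPL18 difference of differences gave 1 to 11, the line by cold difference 2 to 7, and CSP1-IP minus total of CSP1-FH minus HF-RPL18 in the cold 0 to 1. The ranges of the medians without 1 array stand beside them in the report, and those that moved beyond the spread between replicates were for CSP1-FH non-stress CSP1-IP against total (0.14 to 0.56) and polysomal RNA (0.026 to 0.25), for cold in atcsp1-1 polysomal RNA (0.32 to 0.50) and for polysomal against total RNA in CSP1-FH (0.026 to 0.41) and atcsp1-1 (0.15 to 0.27) non-stress.

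AT5G15200 was called lower in CSP1-IP than in polysomal RNA in CSP1-FH non-stress (−0.84, limma adjusted p = 0.0385) and was at 0.095 after loess (adjusted p = 0.848). The other genes and pairs given here changed sign but had passed no test. Leaving out 1 array at a time, AT4G30800 was −0.87 to 0.060 (atcsp1-1 minus HF-RPL18, non-stress total), AT5G39850 −0.81 to 0.085 (CSP1-FH minus HF-RPL18, non-stress total), and in non-stress polysomal RNA AT5G58420 was −0.54 to 0.040 (atcsp1-1 minus HF-RPL18), AT3G10610 −0.017 to 0.55 and AT3G57490 −0.55 to 0.059 (CSP1-FH minus HF-RPL18). The S24 pair was −0.0002867 after loess, −0.15 against polysomal RNA, and −0.072 to 0.14 without 1 replicate, and the S10 pair −0.060 to 0.0020. The cause of these changes was not tested. Paralog pairs past the threshold numbered 12 to 14 in every alternative run. After loess 12 of the 13 pairs called in the main run kept their direction.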
